A study of Homo sapiens with 20 samples.

Results

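Open chromatin was compared between HL60 cells labelled HK3-null and Cas9 control cells without retinoic acid. HL60 is a human acute myeloid leukemia cell line of promyelocyte-like cells. ATACseq, in which a transposase inserts sequencing adapters into accessible DNA, was measured in 2 libraries per group: cells labelled HK3-null and cells expressing Cas9 without a knockout, each kept for 36 h in 0.01% DMSO, the diluent of all-trans retinoic acid (ATRA). Groups kept for 36 h in 1 µM ATRA gave the contrast by which the regions had been selected. RNAseq of the same 4 conditions had 3 libraries each. Both lines carry the lentiviral Cas9 vector with its puromycin marker, and every HK3-null library bears the same knockout name. The study grew its lines from single cells, so a difference between the lines cannot be told apart from a difference between clones, and the p-values measure only the spread between these libraries.

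All 8286 deposited regions differed between the genotypes in ATRA by at least 1.65-fold in group means. Of these, the 6192 regions with a mean signal of 17 or more over the 4 DMSO libraries were tested. The signal is the density of sequenced fragments over a region. The regions were therefore not a survey of the genome, and their shares describe only the sites that differ in ATRA. Regions just inside the limit were one of SLC7A2 and PDGFRL with a mean of 17 and a difference of 2.03 on the log2 scale and one of FBLN1 and LINC01589 with 17.003 and 3.16. Just outside lay regions of EGFLAM (16.975, difference -0.30) and TPST1 (16.975, difference 0.99). Of the tested regions, 1165 listed no gene, 3092 listed 1 gene and 1935 listed 2 or more. Their median length was 499 bp. Listed genes lay close by: 98.1% of the region and gene pairs that could be matched were within 10 kb.

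As background, accessible chromatin marks promoters and enhancers that transcription factors hold open, and a myeloid cell's set of open enhancers changes as a promyelocyte matures. PU.1 and the C/EBP factors open many myeloid enhancers. AP-1, a dimer of FOS and JUN family proteins such as FOSL1, binds enhancers that respond to stress, cytokines and differentiation signals. Promoters rich in the dinucleotide CpG include those of most housekeeping genes and can be closed by DNA methylation. HK3 is the hexokinase most closely tied to myeloid cells.

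Myeloid markers were high in all RNAseq libraries. The 8 myeloid progenitor markers summed to 757088 to 851553 normalized counts in every DMSO library, led by the granule peroxidase gene MPO, while the erythroid genes HBB, HBA1 and ALAS2 were at 0 in all. The 5 T-cell markers summed to 2 to 8. The 4 B-cell markers summed to 46 to 59 in Cas9 control and 147 to 177 in the HK3-null-labelled libraries, with MS4A1 at 0. The 4 fibroblast or epithelial markers summed to at most 28 in the HK3-null-labelled libraries and to 441 in Cas9 control RNAseq replicate 1. The part of these sums in the results was not tested. HK3 RNA itself went against the label: it was at 90, 65 and 105 normalized counts in Cas9 control and at 344, 302 and 346 in the HK3-null-labelled libraries (log2 difference 1.96 ± 0.21, SE; limma, adjusted p = 1.11e-05). These counts sum the whole gene and do not read the edited site. No deposited region listed HK3 or HK1. A single region listed HK2 (chr2:74896787-74897166) and was too weak to test, with a signal of 5.58 and 1.75 in Cas9 control against 5.83 and 4.25 in the HK3-null-labelled libraries.

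Many regions that were more open in the HK3-null-labelled libraries shared the AP-1 motif, and 4 of them are shown here because the motif lay close to the centre of a region listed by a myeloid or AP-1 gene. They were chosen after their values were seen. The sequences are from the plus strand of hg38, 55 bases each, and the capitals mark the AP-1 match. They lie at chr1:153361085-153361139 (near S100A9, intergenic), chr19:51824711-51824765 (FPR3, exonic), chr11:65899362-65899416 (FOSL1, promoter) and chr6:90284391-90284445 (BACH2, intronic). The matches lay 29, 56, 27 and 21 bp from the centres of their regions, in that order.
S100A9: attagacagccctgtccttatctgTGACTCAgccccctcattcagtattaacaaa
FPR3: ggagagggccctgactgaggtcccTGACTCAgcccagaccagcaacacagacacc
FOSL1: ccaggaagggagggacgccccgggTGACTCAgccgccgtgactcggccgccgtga
BACH2: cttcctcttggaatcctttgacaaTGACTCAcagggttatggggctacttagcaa

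The largest increases lay mostly at CpG-rich promoters. For 4 such promoters and 1 intronic region, 150 bases near the centre are shown, again from the plus strand of hg38, with each CpG in capitals. They lie at chr22:29481101-29481250 (NEFH promoter region), chr9:81689590-81689739 (TLE1 promoter region), chr19:2900683-2900832 (ZNF57 promoter region), chr9:127396903-127397052 (shared promoter region of GARNL3 and SLC2A8) and chr17:67165284-67165433 (HELZ intron). These windows held 17, 20, 11, 10 and 5 CpG in that order. The GARNL3 and SLC2A8 region was lower in the HK3-null-labelled libraries and the other 4 were higher.
NEFH: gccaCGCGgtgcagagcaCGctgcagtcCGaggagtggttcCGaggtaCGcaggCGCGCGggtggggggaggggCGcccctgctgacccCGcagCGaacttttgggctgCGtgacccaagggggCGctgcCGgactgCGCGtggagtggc
TLE1: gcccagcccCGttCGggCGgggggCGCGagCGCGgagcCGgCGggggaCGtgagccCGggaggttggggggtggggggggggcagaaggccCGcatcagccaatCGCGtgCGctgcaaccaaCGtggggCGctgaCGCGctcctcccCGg
ZNF57: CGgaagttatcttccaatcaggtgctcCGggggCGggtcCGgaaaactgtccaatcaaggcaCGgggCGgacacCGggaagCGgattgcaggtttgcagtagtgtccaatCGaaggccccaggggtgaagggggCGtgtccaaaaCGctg
GARNL3 and SLC2A8: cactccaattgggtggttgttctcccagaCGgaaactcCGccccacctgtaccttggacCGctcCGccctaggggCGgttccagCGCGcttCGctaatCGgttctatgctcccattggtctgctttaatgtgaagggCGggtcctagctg
HELZ: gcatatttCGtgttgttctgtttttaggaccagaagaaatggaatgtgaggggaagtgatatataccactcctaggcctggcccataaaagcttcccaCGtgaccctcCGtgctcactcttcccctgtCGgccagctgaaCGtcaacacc

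Nearly all regions that differed in ATRA differed in the same direction without it. In DMSO, 5499 of 6192 tested regions passed the test (88.8%), which required a change of 1.5-fold or more and a limma adjusted p under 0.05 on the log2(signal + 1) scale. They were 2698 regions higher (43.6%) and 2801 lower (45.2%) in the HK3-null-labelled libraries. In 5498 of the 5499, both HK3-null-labelled libraries lay beyond both Cas9 control libraries. The sign was the one seen in ATRA in 6132 regions (99.03%). The ATRA difference was kept in 5497 regions, was not called in 693 and was reversed in 2. With 2 libraries against 2, an exact permutation test of a single region cannot go below p = 0.333, so each call rests on the spread shared across regions (median SE 0.353, range 0.275 to 0.619).

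**Figure D1:**
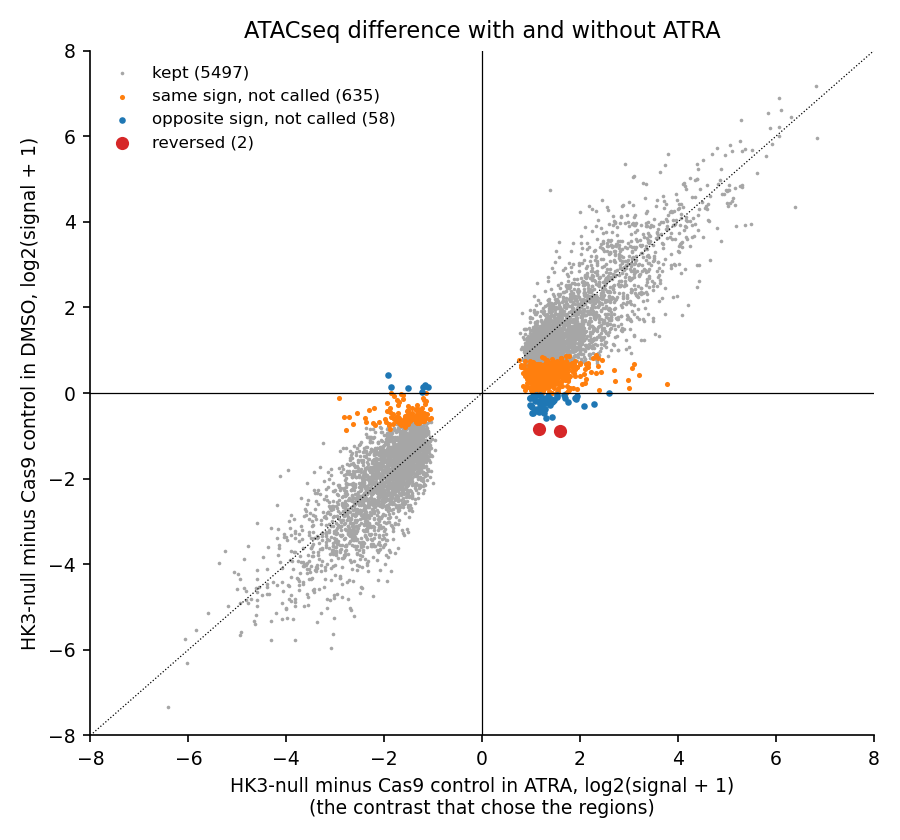
Each point is 1 of the 6192 tested regions, placed by its log2(signal + 1) difference in ATRA (horizontal, the contrast that selected the regions) and in DMSO (vertical), with the dotted line marking equal differences. The 5497 kept regions fill the lower left and upper right, 58 regions of opposite sign lie near the horizontal axis and the 2 reversed regions lie below it on the right.

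The 2 directions were kept to unequal extents. Of 3261 regions higher in ATRA, 2698 (82.7%) were kept, 510 had the same sign without a call, 51 had the opposite sign without a call and 2 were reversed. Of 2931 regions lower in ATRA, 2799 (95.5%) were kept, 125 had the same sign without a call and 7 had the opposite sign. Among kept regions, the median log2 difference of those higher was 1.39 in DMSO and 1.64 in ATRA, and that of those lower was -1.83 in DMSO and -1.85 in ATRA. The DMSO difference was smaller than the ATRA difference in 70.4% of regions higher in ATRA and 53.4% of those lower. This is a description, since the ATRA values selected the regions, and it was not tested. In ATRA, Cas9 control replicate 2 stood apart, with a total signal over the tested regions of 221296 against 302834 to 366417 in the other 7 libraries, and its part in the unequal shares was not tested. Without it, 5583 regions were called and 3 were reversed. No uncalled region had a 95% confidence interval that stayed within 1.5-fold in either direction, and with only the 4 DMSO libraries in the fit 69 did. Most uncalled regions were thus not shown to be alike in the 2 lines.

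Differences of 16-fold or more were found in 275 regions, 133 higher and 142 lower. Of the 133 higher, 71 (53.4%) were promoters, here any region within 1 kb of an annotated start site, with a median of 4.39 CpG per 100 bases. Of the 142 lower, 29 (20.4%) were promoters, with 1.68 CpG per 100 bases. Over all tested regions, 23.9% were promoters. Zinc finger genes (ZNF or ZFP) were listed by 13 of the 133 and by 2 of the 142. Among regions 4- to 16-fold different they were listed by 16 of 660 higher and 6 of 1039 lower. Among those 2- to 4-fold different the counts were 30 of 1323 and 23 of 1403. Among those 1.5- to 2-fold different they were 15 of 723 and 2 of 269, and below 1.5-fold 1 of 376 and 1 of 124. Chromosome 19 held 11 of the 133, 8 of the 142 and 227 of all 6192 tested regions.

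The largest increase was at PEG3, a paternally expressed imprinted gene that encodes a zinc finger protein. Its region with the largest difference (chr19:56838726-56840012, 649 bp from a start site, also listing ZIM2 and MIMT1) had a signal of 1.9 and 2.3 in Cas9 control against 455.8 and 431.2 in the HK3-null-labelled libraries (log2 difference 7.17 ± 0.33, SE; limma, adjusted p = 1.25e-24). The neighbouring region over the start site rose from 1.7 and 2.2 to 254 and 236.1. The groups lay far apart and did not overlap in either region. PEG3 RNA was at 3, 0 and 0 normalized counts in Cas9 control against 148, 141 and 171 in the HK3-null-labelled libraries, while ZIM2 was listed at 0 in all 6.

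Other promoters with almost no signal in Cas9 control showed the same pattern. PEG3, TLE1, ZNF57, ZNF555 and the GARNL3 and SLC2A8 region list several genes and were chosen for naming after their values were seen. At NEFH, which encodes the heavy neurofilament subunit, the signal was 1.8 and 2.9 in Cas9 control against 194.1 and 180.9 in the HK3-null-labelled libraries (5.82 ± 0.37, SE; limma, adjusted p = 5.57e-19), and NEFH RNA went from 3, 0 and 1 to 1092, 1050 and 1038 normalized counts. At TLE1, a corepressor gene, the signal was 1.9 and 1.4 against 197.8 and 191.3, and RNA was 19, 0 and 1 against 205, 162 and 135. At ZNF57 it was 2.6 and 2.5 against 230.3 and 222.2, with RNA at 1, 0 and 0 against 187, 207 and 187. At the promoter shared by ZNF554 and ZNF555 it was 1.0 and 2.8 against 241.5 and 237.7. ZNF555 RNA was 3, 1 and 0 against 91, 105 and 128. ZNF554 RNA was already present in Cas9 control, at 25, 26 and 23 against 57, 53 and 65. LAPTM4B, a lysosomal membrane protein gene on chromosome 8, had promoter signal of 0 in both Cas9 control libraries and 58.1 and 38.7 in the HK3-null-labelled libraries, and its RNA was 43, 1 and 2 against 7928, 8187 and 7522. In each of these genes every library labelled HK3-null was above every Cas9 control library, in signal and in RNA.

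At other promoters the order was the opposite. The region shared by GARNL3 and SLC2A8, a glucose transporter gene, had a signal of 337.3 and 343.1 in Cas9 control against 3.0 and 3.6 in the HK3-null-labelled libraries (-6.31 ± 0.34, SE; limma, adjusted p = 4.91e-22). SLC2A8 RNA was at 305, 287 and 308 normalized counts in Cas9 control and at 0 in all 3 HK3-null-labelled libraries, at least 100-fold lower against a floor of 3 counts per library. GARNL3 RNA was higher, at 43, 48 and 43 against 127, 112 and 122. At ZNF441 the signal was 145.4 and 135.1 against 2.5 and 1.6 (-5.54 ± 0.38, SE; limma, adjusted p = 1.57e-17), and ZNF441 RNA was at 224, 227 and 190 against 0 in all 3, at least 71.2-fold lower. IVD, which encodes a leucine catabolism enzyme, fell in signal from 133.8 and 163.3 to 2.0 and 1.6 and in RNA from 1991, 1845 and 1972 to 29, 14 and 50. The largest fall lay in a region without a listed gene at chr5:963428-964455, with 612.8 and 598.1 against 3.0 and 2.6 (-7.33 ± 0.33, SE; limma, adjusted p = 5.18e-25).

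Named regions far from promoters had large differences with and without a difference in RNA. A HELZ intron (chr17:67165121-67165597) had a signal of 0 and 2.1 in Cas9 control against 110.7 and 96.9 in the HK3-null-labelled libraries, and an SLC15A4 intron had 1.7 and 0 against 90.6 and 75. RNA of HELZ, an RNA helicase gene, differed by 0.09 ± 0.16 (SE) and that of SLC15A4, a lysosomal peptide transporter gene, by 0.19 ± 0.07, and neither was called. An OSBPL5 intron fell from 121.8 and 161.8 to 3.4 and 1.8, while OSBPL5 RNA was 0.63 ± 0.11 higher on the log2 scale and below the 2-fold limit. At GALNT14, a glycosyltransferase gene, an intronic region fell from 31.1 and 44.9 to 0 in both libraries and RNA fell from 1568, 1451 and 1420 normalized counts to 2, 2 and 0. GALNT14 also had a promoter region called lower, so its RNA cannot be set beside the intronic region alone.

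Some genes gathered many regions that moved together. They were picked for the most regions called in 1 direction, so the agreement within a gene follows in part from that choice. Over all tested regions 43.6% were called higher and 45.2% lower. TRIO, which encodes a guanine nucleotide exchange factor, listed 14 tested regions over chr5:14142889-14445979, and all 14 were lower, by a median of -3.90 on the log2 scale. In the largest, the signal was 93.1 and 103.5 in Cas9 control against 3.5 and 1.2 in the HK3-null-labelled libraries. TRIO RNA was at 1418, 1404 and 1401 against 2, 3 and 7 normalized counts (-8.66 ± 0.48, SE; limma, adjusted p = 5.83e-08). The immunoglobulin heavy chain locus, listed as IGH, had 15 of 15 regions lower (median -1.86). AKAP13, a kinase anchoring protein gene, and PDE4D, a cAMP phosphodiesterase gene, each had 9 of 9 lower, and C5orf66 had 10 of 10. On the other side, SPIDR had 8 of 8 higher, and FAM49B, IPCEF1 and PTK2B, a focal adhesion family kinase gene, each had 8 of 9 higher, with the remaining region uncalled. RNA of SPIDR (0.89) and PDE4D (-0.86) was not called. RNA of FAM49B, IPCEF1 and PTK2B was called higher (1.06, 2.79 and 1.37), and RNA of AKAP13 and C5orf66 lower (-2.50 and -1.62). Apart from IGH, each of these genes lies on chromosome 5, 6, 8 or 15.

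Whole chromosomes were shifted. On chromosomes 6 and 8, 87.3% and 98.2% of called regions were higher in the HK3-null-labelled libraries, while on chromosomes 5, 13 and 15 only 6.03%, 7.86% and 2.24% were. The medians of the tested regions were 1.09 and 1.14 on chromosomes 6 and 8 and -1.59, -1.50 and -1.55 on chromosomes 5, 13 and 15. RNA shifted in the same direction over all expressed genes of these chromosomes, selected or not: the medians were 0.53 and 1.11 on chromosomes 6 and 8 and -0.75, -0.58 and -0.94 on chromosomes 5, 13 and 15. On the other chromosomes the RNA medians lay between -0.10 and 0.08. Among those, chromosomes 14 and 21 also had low ATACseq medians (-1.28 and -1.52), with 75th percentiles of 1.36 and 1.01. Chromosomes 5, 6, 8, 13 and 15 held 44.4% of the tested regions and 17.8% of the tested genes with a known chromosome. DNA copies were not measured, so a changed number of copies and a changed accessibility per copy cannot be told apart there. On the remaining chromosomes, where RNA was not shifted, 3022 of 3444 regions (87.7%) were called, 1470 higher and 1552 lower. The regions had been selected for a difference in ATRA in either direction, so this split follows in part from that selection.

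**Figure D2:**
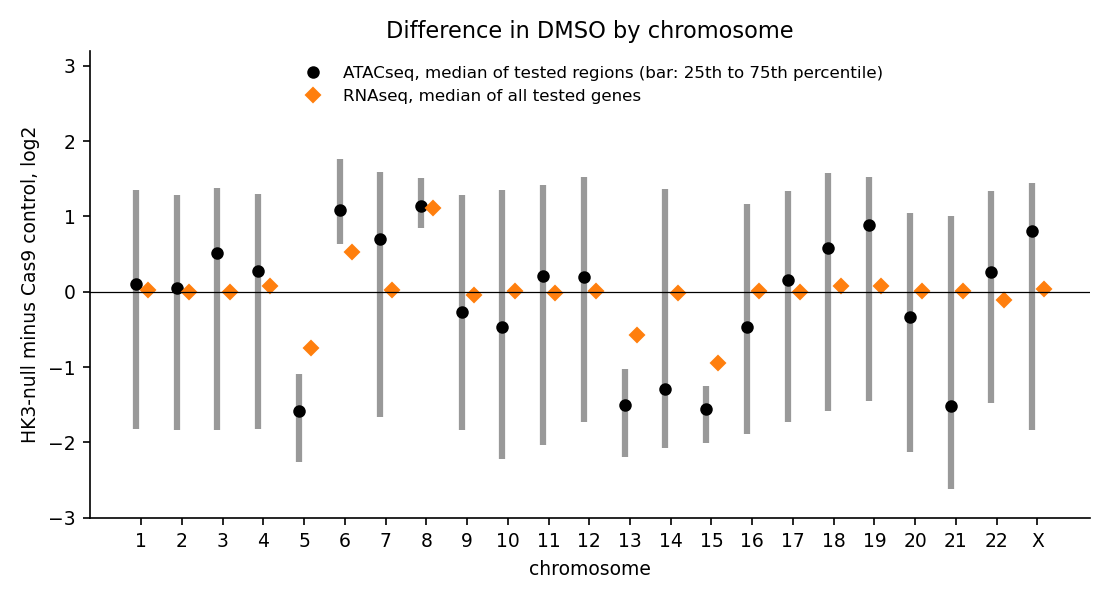
For each chromosome, black points give the median ATACseq difference of its tested regions in DMSO with a bar from the 25th to the 75th percentile, and orange diamonds the median RNA difference of all its tested genes, both as log2 of HK3-null minus Cas9 control. Chromosomes 5, 6, 8, 13 and 15 stand out by their RNA medians, which run from -0.94 to -0.58 or from 0.53 to 1.11. Their ATACseq medians, from -1.59 to 1.14, lie on the same side of 0 as those of RNA. Chromosomes 14 and 21 also have low ATACseq medians (-1.28 and -1.52), but with bars that cross 0 and RNA medians near 0.

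The AP-1 motif separated the directions. The motif was searched as TGANTCA, where N is any base and which reads the same on both strands, in 401 bases around the centre of each of the 4712 regions over 1 kb from a start site. It was present in 768 of 1880 kept higher regions (40.9%), in 252 of 2235 kept lower regions (11.3%) and in 25.7% of all 4712. GC content was alike, with medians of 48.6% and 49.1%. Outside the 5 shifted chromosomes the shares were 43.4% and 11.4%. The share was higher for larger increases, from 33.7% in regions less than 1.5-fold higher to 46.8% (29 of 62) in those 16-fold or more higher, and lower for larger decreases, from 20.7% to 9.73% (11 of 113). Regions higher in ATRA that were not kept in DMSO held it in 172 of 488 (35.2%). These are counts without a test, and a match does not show that a factor was bound.

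**Figure D3:**
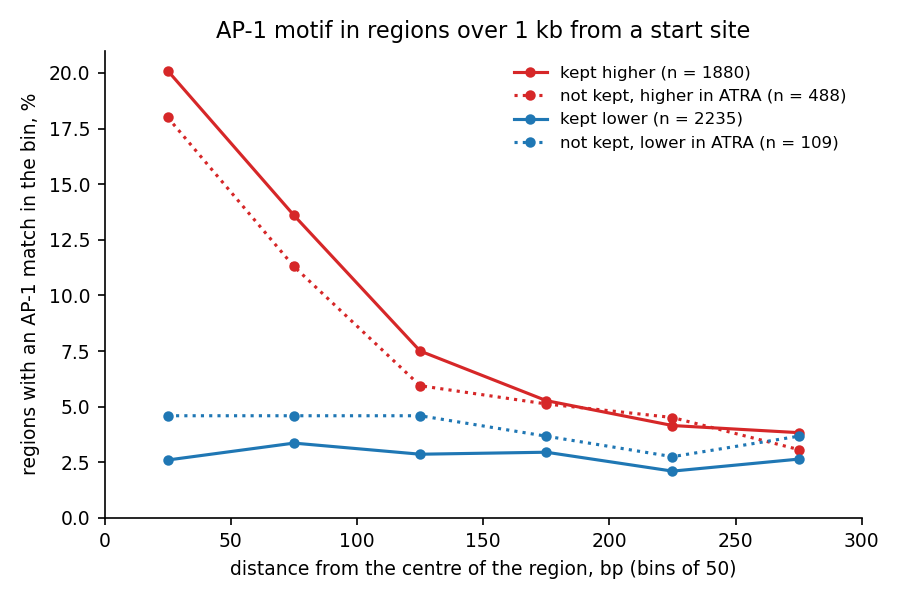
The share of regions over 1 kb from a start site that hold an AP-1 match, in % on the vertical axis, is plotted against the distance of the match from the centre of the region in bins of 50 bp. Within 50 bp of the centre the share is 20.1% in kept higher regions and 2.60% in kept lower regions, and beyond 200 bp the 4 classes lie between 2.10% and 4.51%.

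In the regions higher in ATRA, the AP-1 matches were most frequent near the centre. Within 50 bp of the centre, 378 of 1880 kept higher regions (20.1%) held a match, against 58 of 2235 kept lower regions (2.60%). Between 250 and 300 bp the shares were 3.83% and 2.64%. The other motifs differed less. PU.1, searched as GAGGAAGT and its complement, was in 10.1% of kept higher and 13.5% of kept lower regions, C/EBP (TTGCNCAA) in 7.82% and 8.32%, the RUNX motif in 17.5% and 19.6% and the GATA motif in 5.05% and 6.35%. For RUNX the letters searched were TGTGGTT. For GATA they were AGATAAG. Both strands were read for each motif, and all 4712 regions held them in 11.7% (PU.1), 8.49% (C/EBP), 19.1% (RUNX) and 5.56% (GATA). At promoters AP-1 was found in 12.7% of kept higher and 8.33% of kept lower regions.

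Regions of myeloid transcription factors lay in both directions, and both of the AP-1 gene FOSL1 were higher. The 43 transcription factors of the list had 32 tested regions, of which 16 were called higher, 11 lower and 5 neither. All tested regions were called 43.6% higher and 45.2% lower. The median was 0.64 against 0.30 over all tested regions. At FOSL1, the promoter-side region (chr11:65899269-65899563) whose sequence is shown above had a signal of 6.0 and 7.0 in Cas9 control against 51.8 and 60.4 in the HK3-null-labelled libraries (2.93 ± 0.38, SE; limma, adjusted p = 2.43e-09). FOSL1 RNA was at 28, 11 and 6 against 193, 192 and 151 normalized counts (3.86 ± 0.55, SE; limma, adjusted p = 1.04e-04). Both measures were higher in every library labelled HK3-null. A region that lists GATA2, a factor of stem and mast cells, together with GATA2-AS1 and LOC90246 went from 1.4 and 1.9 to 48.1 and 37.6. GATA2 RNA was called higher, at 441, 476 and 527 against 1222, 1476 and 1559. GATA2-AS1 RNA was at 154, 129 and 156 against 4, 4 and 2 without passing the test (limma, adjusted p = 0.0558), and LOC90246 RNA was called lower, at 11, 10 and 22 against 0, 1 and 0. Regions of BACH2, RUNX2, RUNX3, SPI1 and KLF2 were also higher, while BACH2 RNA was lower, at 8, 10 and 7 against 2, 3 and 4. SPI1, which encodes PU.1, had 2 regions called higher (1.71 and 0.62), and its RNA was 0.47 higher on the log2 scale, which is below the 2-fold limit.

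The lower regions of this group lay mainly at ETS1 and IRF8, with others at RUNX2, GFI1B, MEIS1, FLI1 and ETV6. All 4 regions of ETS1, a factor of lymphoid and early hematopoietic cells, were lower, and in the largest the signal was 118.9 and 105.0 in Cas9 control against 15.2 and 9.9 in the HK3-null-labelled libraries (-3.08 ± 0.37, SE; limma, adjusted p = 2.74e-10). ETS1 RNA was low and did not differ detectably, at 25, 5 and 7 against 13, 12 and 7. Both regions of IRF8, a factor of the monocyte lineage, were lower (-2.31 and -2.78), with a signal of 28.5 and 37.4 against 4.3 and 3.5 in the one with the larger fall. IRF8 RNA went the other way, at 106, 86 and 103 against 270, 261 and 300 (1.5 ± 0.29, SE; limma, adjusted p = 0.00108). RUNX2 had 2 regions higher and 1 lower, with RNA 1.26 higher.

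**Figure D4:**
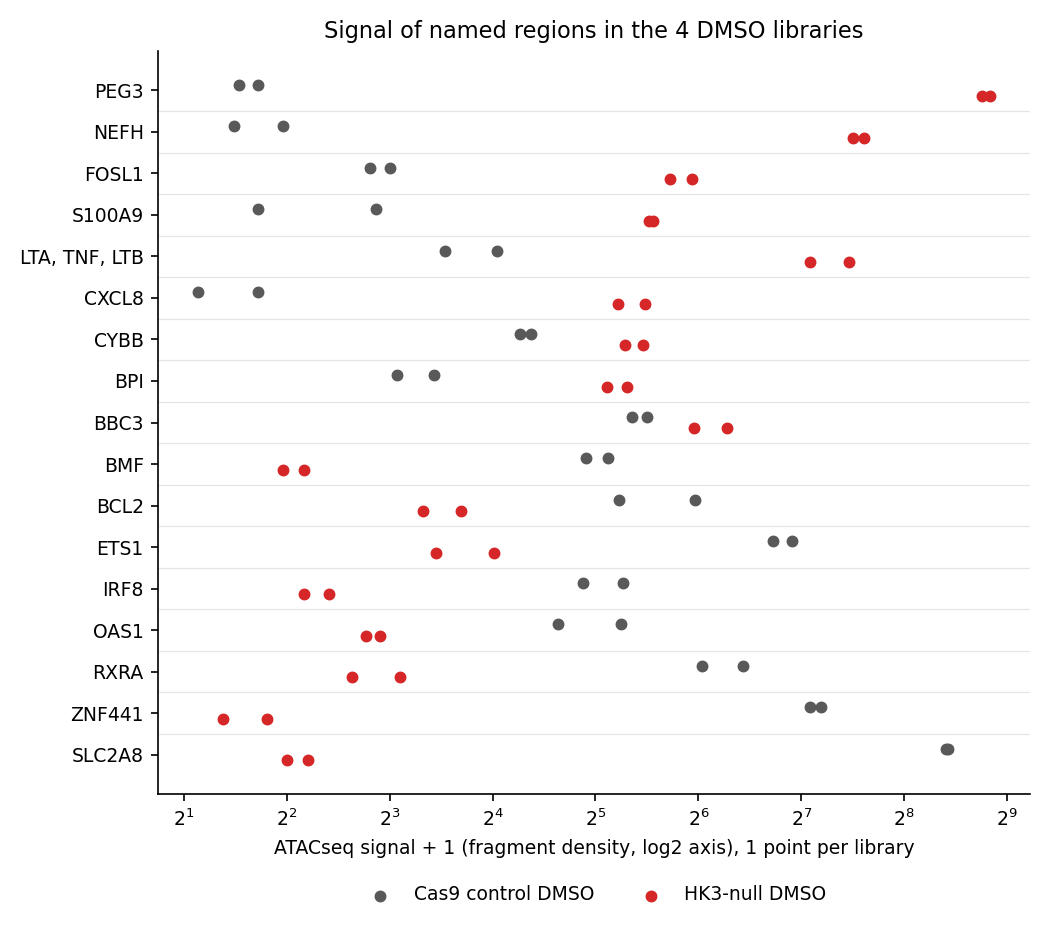
Signal plus 1, on a log2 axis, of 17 regions in the 4 DMSO libraries, 1 point per library, with Cas9 control in grey and HK3-null in red. Each gene is shown by its region with the largest difference in DMSO, so the lack of overlap follows in part from that choice. It was found in 5498 of the 5499 called regions. In all 17 the points of the 2 groups do not overlap, with the narrowest gap at BBC3 and the widest at PEG3 and SLC2A8.

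Neutrophil and inflammatory genes were more open in part. The granule protein list had 27 genes but only 4 tested regions, 2 higher, 1 lower and 1 uncalled. These are too few to set against the 43.6% higher and 45.2% lower of all tested regions. At BPI, a bactericidal granule protein gene, the promoter signal was 7.4 and 9.8 in Cas9 control against 38.6 and 33.7 in the HK3-null-labelled libraries (1.96 ± 0.43, SE; limma, adjusted p = 5.54e-05), and RNA was 107, 80 and 108 against 6250, 6206 and 6270. A region near the defensin gene DEFA4 went from 5.5 and 3.9 to 27.5 and 31.9, with RNA at 12, 6 and 12 against 438, 459 and 480. Between AZU1 and PRTN3, which encode granule serine proteases, a region was lower (98.3 and 106.6 against 53.1 and 46.8), and neither RNA was called.

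The phagocyte NADPH oxidase, which makes superoxide, had 3 tested regions. A CYBB intron, at the gene of the catalytic subunit, had 18.3 and 19.7 against 38.1 and 43.1 (1.05 ± 0.34, SE; limma, adjusted p = 0.00450), and CYBB RNA was 241, 251 and 180 against 8433, 8696 and 7412 normalized counts. With the X chromosome median of 0.81 subtracted the CYBB region was 0.24 and not called, although RNA of that chromosome was not shifted (median 0.04). An intergenic region that lists ZC3H18, IL17C and CYBA was lower (-3.11), while the NCF4 region was uncalled (0.37). Of the 14 regions at leukocyte receptors and adhesion genes, 8 were higher, 4 lower and 2 uncalled, with a median of 1.22. All tested regions were 43.6% higher and 45.2% lower. The region near S100A9, a calcium-binding protein gene abundant in neutrophils, had 2.3 and 6.3 against 46.1 and 44.9 (3.24 ± 0.41, SE; limma, adjusted p = 1.55e-09), and S100A9 RNA was 843, 694 and 767 against 15826, 15646 and 15278. Regions of FPR3, FCGR3B and CD86 were higher too, those of SIRPA and CD74 lower. The CD74 region, at -1.475, also lists TCOF1 and lies on the shifted chromosome 5, where the median was -1.59. RNA of CD74, the MHC class II chaperone gene, was higher, at 18, 1 and 2 against 522, 583 and 512. FPR3 RNA was at 0 in all 6 DMSO libraries although its region rose from 14.9 and 11.9 to 116.3 and 119.7.

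Death receptors and the cytokine TNF signal to caspases and NF-kB. Of 22 tested regions at genes of this group, 20 were higher, 1 was lower and 1 was uncalled, with a median of 1.31, against 43.6% higher over all tested regions. Of the 22, 19 lay on the shifted chromosomes 6 and 8, where 87.3% and 98.2% of all called regions were higher with medians of 1.09 and 1.14. An intergenic region listing LTA, TNF and LTB (chr6:31578604-31579450) had 10.6 and 15.5 in Cas9 control against 134.3 and 175.3 in the HK3-null-labelled libraries (3.48 ± 0.36, SE; limma, adjusted p = 8.65e-12). TNF RNA was 175, 160 and 90 against 2262, 1839 and 1279 normalized counts, and LTB RNA 46, 47 and 33 against 388, 432 and 423. The 4 TRAIL receptor genes TNFRSF10A, TNFRSF10B, TNFRSF10C and TNFRSF10D lie side by side on chromosome 8, and their regions were 0.59 to 1.62 higher with only the one of TNFRSF10C uncalled. RNA of all 4 was called higher, most for TNFRSF10C (4.09 ± 0.46) and TNFRSF10B (3.31 ± 0.16), against a chromosome 8 median of 1.11. The exception among the called regions was CFLAR, an inhibitor of caspase-8, at whose promoter the signal was 111.6 and 118.4 against 47.1 and 55.0 (-1.16). CFLAR RNA did not pass the test (0.11 ± 0.06). RIPK1, a kinase of this pathway, had a promoter region 1.82 higher.

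Genes of the BCL2 family set the mitochondrial threshold of apoptosis. Of their 11 regions in both lists below, 9 were lower, against 45.2% of all tested regions, and 6 lay on shifted chromosomes. The BH3-only list, the death-promoting branch, had 6 tested regions at 3 genes, 1 higher and 5 lower. Of the lower ones, 4 lay at BMF on the shifted chromosome 15, where the largest in signal was the promoter with 186.3 and 193.3 against 89.7 and 86.2 (-1.10 ± 0.29, SE; limma, adjusted p = 5.92e-04). With the chromosome median subtracted this promoter was 0.45 higher, while the other 3 BMF regions were -1.40, -0.62 and -0.08. BMF RNA did not pass the test (-0.29 ± 0.13). BBC3, which encodes the BH3-only protein PUMA, was the BH3-only gene with a higher region, at 44.3 and 39.8 against 61.1 and 76.4 (0.69 ± 0.30, SE; limma, adjusted p = 0.0321). With the chromosome 19 median of 0.89 subtracted the region was -0.20. Chromosome 19 was not among the shifted ones, with an RNA median of 0.08. BBC3 RNA was 46, 36 and 16 against 213, 227 and 134 (2.65 ± 0.40, SE; limma, adjusted p = 1.71e-04). The region at BIK and MCAT was lower (-0.79).

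Of the prosurvival and effector genes, 4 of 5 regions were lower. At BCL2, which protects from apoptosis, an intronic region (chr18:63155387-63155841) had 36.5 and 61.5 against 9.0 and 11.9 (-2.09 ± 0.40, SE; limma, adjusted p = 7.75e-06), whereas BCL2 RNA was 0.75 ± 0.06 higher and below the 2-fold limit. BCL2L1 and BAK1, the latter on the shifted chromosome 6, had regions lower by -2.10 and -1.71, and RNA of neither passed the test (0.03 ± 0.07 and -0.18 ± 0.08). At BCL2A1, on the shifted chromosome 15 with its median of -1.55, the region was lower (-1.49) and RNA higher, 10 in each Cas9 control library against 80, 69 and 73. BAX was the exception, with a region 0.66 higher on chromosome 19, where the median of the tested regions was 0.89.

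Of 11 tested regions at interferon response genes, 9 were lower (45.2% of all tested regions were), 1 was higher and 1 was uncalled, with a median of -1.44, and 4 lay on shifted chromosomes. At OAS1, which encodes an antiviral oligoadenylate synthetase, a promoter region had 37.1 and 23.9 against 5.8 and 6.5 (-2.10 ± 0.42, SE; limma, adjusted p = 1.48e-05), and RNA was 181, 165 and 231 against 6, 6 and 7. An IFIT1 promoter region was 1.44 lower on the log2 scale, at 59.1 and 54.5 against 21.3 and 19.3, with RNA at 97, 78 and 92 against 8, 14 and 7. An MX2 intron fell from 59.4 and 45.4 to 1.2 and 1.9, but MX2 RNA was not called (-0.52 ± 0.21). The IRF1 region with the larger fall was lower by -2.17, and its RNA by -1.14, on chromosome 5. STAT2 was the exception, with a region at 34.3 and 41.7 against 157.0 and 123.4. Over the whole list of 41 genes, 37 had tested RNA, of which 9 were lower and 2 higher, against 8.2% and 11.1% of all genes tested.

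Regions of retinoid receptor and response genes lay in both directions. Of 9 tested regions, 5 were lower, 3 higher and 1 uncalled, with a median of -0.93, and 3 of the 5 lower ones were at RXRA. Over all tested regions 45.2% were lower. All 3 regions of RXRA, a partner receptor of the retinoic acid receptors, were lower, by -0.93, -1.31 and -3.37. In the last of these (chr9:134385895-134386286) the signal was 64.8 and 85.2 in Cas9 control against 5.2 and 7.6 in the HK3-null-labelled libraries. An RXRG intron was lower too (-2.72). A promoter region that lists RXRB, HSD17B8 and 3 other genes was lower by -3.40, and RNA of HSD17B8, which encodes a fatty acid synthesis dehydrogenase, fell with it from 76, 74 and 95 to 7, 14 and 6, while RXRB RNA was 1.01 ± 0.14 higher. RXRA RNA was 0.39 ± 0.05 higher. Promoter regions of ASB2 and TGM2 were higher (1.51 and 0.85). A RARB intron was higher (7.2 and 11.7 against 54.0 and 38.7), with RARB RNA at 1, 0 and 0 against 0 in all 3.

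Chemokine genes and stress genes split by locus. The counts below are to be read against 43.6% higher and 45.2% lower over all tested regions. Of 13 chemokine and cytokine regions, 6 were higher and 7 lower, and 6 of the 7 lower were at IL16 and TGFBI on the shifted chromosomes 15 and 5. A region near CXCL8, the main neutrophil chemokine, had 2.3 and 1.2 against 36.2 and 43.7 (3.94 ± 0.50, SE; limma, adjusted p = 1.46e-09), with RNA at 135, 110 and 82 against 1774, 1351 and 721. Of 17 regions at oxidative stress genes, 11 were higher, 4 lower and 2 uncalled, and 9 lay on shifted chromosomes. All 7 regions of GSR (glutathione reductase) and MSRA (a methionine sulfoxide reductase) lay on chromosome 8 and were higher. MSRB3, of the same enzyme family, had a promoter signal of 51.8 and 47.0 against 13.8 and 16.8 and RNA of 2099, 2015 and 2081 against 131, 123 and 128. Of 15 DNA damage regions, 10 were higher, 3 lower and 2 uncalled, and 12 lay on shifted chromosomes. The 3 lower ones were at TP53BP1, BLM and BRCA1 (-1.26, -1.28 and -1.82), and only TP53BP1 RNA was called lower (-1.59 ± 0.10). All 3 regions of CDKN1A, a cell cycle inhibitor gene, were higher, led by one at 5.1 and 3.9 against 56.9 and 66.2. CDKN1A RNA was at 124, 3 and 0 in Cas9 control against 104, 113 and 107 in the HK3-null-labelled libraries, and the library at 124 is the one with the fibroblast or epithelial marker sum of 441. The same library held TGFBI RNA at 330 against 4 and 2 in the other 2.

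The small lists held few regions. SLC2A14 gave the 1 tested region of the 10 hexokinase and glucose transporter genes, at 10.7 and 6.3 against 32.5 and 39.3 (1.99). Of the 2 lymphoid regions, both at EBF1, 1 was higher and 1 lower. The 2 regions at erythroid and megakaryocyte genes, XK and ITGA2B, were both higher. At the XK promoter, a gene of a red cell membrane protein, the signal was 1.3 and 1.8 against 49.8 and 46.1, and RNA was 0 in all 3 Cas9 control libraries against 546, 469 and 380, at least 155-fold higher against a floor of 3 counts per library. HBB, HBA1 and ALAS2 were at 0 in the same libraries.

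RNA moved with the regions in a part of the genes. Of all 13256 genes tested, 11.1% were called higher and 8.2% lower in the HK3-null-labelled libraries in DMSO. Among genes that were the only gene of a called region and whose regions were called in a single direction, 236 of 612 with higher regions (38.6%) had higher RNA and 17 had lower RNA. Of 512 genes with lower regions, 157 (30.7%) had lower RNA and 18 higher RNA. For promoter regions the shares were 66.3% (134 of 202) and 60.3% (85 of 141), and for regions farther away 30.5% (145 of 475) and 24.2% (103 of 426). Here the single direction was required within each kind of region, so a gene could be counted as higher for one kind and lower for the other. Outside the 5 shifted chromosomes the shares for regions of any kind fell to 29.1% (110 of 378) and 26.3% (79 of 300), while the promoter shares were 64.2% and 61.3%. The median RNA difference was 1.44 for genes with higher promoter regions and -1.72 for those with lower ones, against 0.003 over all genes.

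**Figure D5:**
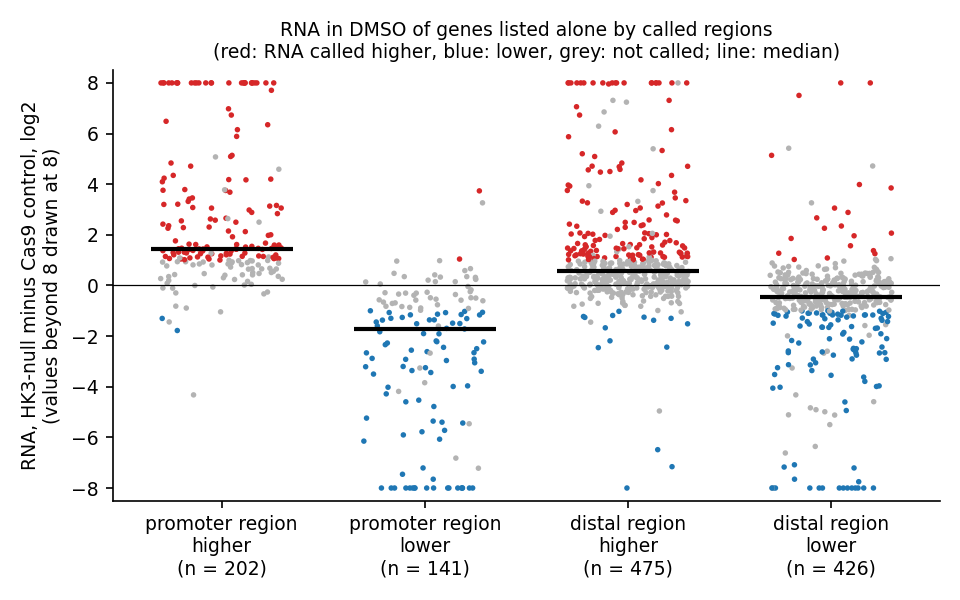
Each point is a gene listed alone by called regions, placed by its RNA difference in DMSO as log2 of HK3-null minus Cas9 control, with red and blue marking RNA called higher and lower and values beyond 8 drawn at 8. The medians (lines) are 1.44 and -1.72 for promoter regions higher and lower and 0.57 and -0.46 for the more distant regions.

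In 693 regions the ATRA difference was not called in DMSO. At CYP27A1, a sterol hydroxylase gene, an intronic region had 22.9 and 12.3 in Cas9 control against 162.1 and 164.1 in the HK3-null-labelled libraries with ATRA, but 15.8 and 21.8 against 28.5 and 21.9 without it (0.41 ± 0.34, SE; limma, adjusted p = 0.247). At IL1R1, an interleukin-1 receptor gene, the ATRA values were 0 and 1.4 against 19.2 and 21.4, and the DMSO values 16.6 and 17.2 against 19 and 20.2 (0.20 ± 0.48). There the Cas9 control libraries differed between treatments while those labelled HK3-null lay between 19 and 21.4 in both. MAP3K14, the kinase of the noncanonical NF-kB pathway, and SASH1 had the same order, with Cas9 control at 4.9 and 1.0 in ATRA and 20.9 and 34.6 in DMSO at MAP3K14. Of regions lower in ATRA, those of LOC105374713, ULBP1, FRY and MAP2K5 had the largest ATRA differences among the uncalled. All 4 lie on shifted chromosomes, and with the chromosome median subtracted their DMSO differences were 1.46, -1.64, 0.77 and 0.69 in that order. At FRY, the DMSO values were 29.6 and 34.7 against 13.6 and 26.2 (-0.73 ± 0.46), and FRY RNA was 1.57 higher.

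In 60 regions the sign in DMSO was opposite to that in ATRA, 53 of them higher in ATRA. In 21 of the 60, the groups did not overlap in either treatment. With 2 libraries against 2, complete separation of a single region has an exact permutation p of 0.333, and the ATRA values had selected the regions. The count is therefore a description without a test. At FBLN1, an extracellular matrix protein gene, an intronic region (chr22, start 45552465) had 28.3 and 30.0 in Cas9 control against 20.9 and 18.2 in the HK3-null-labelled libraries in DMSO, and 74.2 and 55.6 against 164.2 and 183.8 in ATRA. At GNG4, a G protein subunit gene, the DMSO values were 26.3 and 32.1 against 21.2 and 16.9. The BAHCC1 region, lower in ATRA (-1.86), had 78.6 and 91.3 against 107.3 and 82.7 in DMSO (0.15), and a promoter region of CIITA, the activator of MHC class II genes, differed by 0.03. None of these was called.

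The 2 reversed regions listed no gene. At chr6:113486117-113486667 the DMSO signal was 54.5 and 54.8 in Cas9 control against 32.9 and 27.6 in the HK3-null-labelled libraries (-0.84 ± 0.34, SE; limma, adjusted p = 0.0186), while the ATRA signal was 19.3 and 14.8 against 36.9 and 41.6. At chr7:133477-133841 the DMSO signal was 32.6 and 33.6 against 23.0 and 13.2 (-0.89 ± 0.37, SE; limma, adjusted p = 0.0224), and the ATRA signal 17.2 and 12 against 53.9 and 37.6. In both regions, the Cas9 control signal was lower with ATRA and the HK3-null-labelled libraries were higher with it. At chr6:113486117-113486667 the call was lost without any one of the 4 DMSO libraries (-0.961 to -0.716). At chr7:133477-133841 it was lost without Cas9 control replicate 1, Cas9 control replicate 2 or HK3-null replicate 2 in DMSO (-0.905, -0.866 and -0.506).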

How the data were processed

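Per the study's methods, ATACseq was made from 1e+05 cells per sample. The authors mapped reads of 42 bases with bwa mem, kept unique alignments with at most 2 mismatches, removed duplicates, down-sampled libraries to equal tag numbers, called peaks with MACS2 and merged them into regions. The deposited signal is the density of fragments, extended to 200 bp and counted in 32 bp bins on hg38, averaged over each region. Depth is unknown, so no counting interval is given. The RNAseq values were deposited by the authors as log2 of scaled counts rounded to whole numbers, although the study's methods name RPKM.

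Here log2(signal + 1) of the 6192 regions in all 8 libraries was fitted with limma (version 3.58.1, R version 4.3.3) with 1 mean per group, a trended variance and Benjamini-Hochberg adjustment. RNA of 12 libraries was fitted likewise for genes with a group mean above 3 on the log2 scale, and called at an adjusted p under 0.05 and 2-fold. Start sites came from GENCODE v44. The scripts were tested on simulated data. RNAseq replicate numbers were shared between groups and deviated together in every pair (correlation 0.178 to 0.631 over 10667 genes). The RNA differences, SE, adjusted p-values and calls given here come from a fit without a replicate block, which ignores that pairing. With the block 1500 genes were called higher and 1137 lower, against 1465 and 1087 without it.

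Named genes were the 5 largest differences of each class among regions listing 1 gene, on all chromosomes and outside chromosomes 5, 6, 8, 13 and 15, the 4 uncalled regions each way with the largest ATRA difference, up to 3 called regions per gene list, the 5 genes with most called regions per direction, and every tested region of HK1, HK2, HK3, BH3-only genes and BCL2. Other named genes, further list regions and the sequences were chosen after their values were seen. Members and gene lists were chosen with earlier results of these data known.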

Additional observations from a re-analysis of the deposited data

Results flagged for a closer look

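In 4 of the regions described above, every HK3-null-labelled library lay below both Cas9 control libraries in DMSO and above both in ATRA. At chr6:113486117-113486667 the log2 difference was -0.838 in DMSO and 1.17 in ATRA. At chr7:133477-133841 it was -0.886 in DMSO and 1.58 in ATRA. Neither of these lists a gene. At GNG4 it was -0.595 and 1.31 and at FBLN1 -0.556 and 1.42, and neither of these passed the test in DMSO. The difference between the treatments was not tested, and the regions had been selected for their difference in ATRA.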

How the results depend on the processing

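The fit reported gave 5499 calls in DMSO (5497 kept, 2 reversed, 693 not called). Without a filter on signal 1339 regions were not called, of more regions tested. With a mean signal of 34 or more, fewer regions were tested and 3291 were called (1666 higher, 1625 lower), 3290 kept, 1 reversed and 423 not called. Without chromosomes 5, 6, 8, 13 and 15, 3019 were called (1469 higher, 1550 lower), 3018 kept, 1 reversed and 425 not called. With the median of each chromosome subtracted, 3507 were called (1624 higher), 3432 kept, 75 reversed and 2685 not called, BBC3 was at -0.2, LOC105374713 at 1.463 and the BMF promoter at 0.449, and the cause was not tested. When the RNA median of the 5 chromosomes was subtracted instead, which was chosen after seeing the data, 26 were reversed and 1997 not called. With a fold change of at least 2, 0 were reversed and 1492 not called. Leaving out 1 library gave 4711 to 5583 calls, 0 to 3 reversed and 609 to 1481 not called, the most without Cas9 control DMSO replicate 1. Genes whose RNA was called against their regions numbered 35, and 23 with log2(normalized count + 8).

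ATACseq replicate numbers did not pair the libraries (correlation of deviations 0.056). With the replicate block 5413 regions were called (2638 higher, 2775 lower), 5411 kept, 2 reversed and 779 not called. The 2 libraries per group and the unknown depth limit what could be detected for weak regions.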
